A study of Salvia miltiorrhiza with 5 samples.

Results

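The miR166 family of *Salvia miltiorrhiza*, a medicinal sage, was described across root, stem, leaf and flower. Its members were all entries of the deposited miRNA table whose name held miR166, together with the 1 name that held miR165. They came to 29 of the 241 distinct sequences in the table, which stood in 94 of 488 names and in 156 of 650 entries. Reads were summed per distinct sequence, because 1 sequence could stand under several names taken from other plants. Small RNA was sequenced from flower, leaf, stem and root of plants grown in a field for 8 months and collected in bloom, with no treatment. Each tissue gave 1 library. The fifth library was a degradome, which reads the 5′ ends of cleaved mRNA, from a mixture of the same 4 tissues. There were no replicates, so every interval below covers counting error only and every test compares 4 libraries, not 4 tissues. How many plants went into a library is not given in the sources used here. Only small RNA and cleaved ends were read, so the tissue labels could not be checked against marker genes.

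In plants, miR166 and the nearly identical miR165 pair with the mRNAs of class III homeodomain-leucine zipper (HD-ZIP III) transcription factors, such as REVOLUTA, PHABULOSA and PHAVOLUTA of *Arabidopsis thaliana*, and direct their cleavage. HD-ZIP III factors set the upper side of leaves and floral organs, maintain the shoot meristem and pattern the vascular tissue, and miR166 keeps their transcripts away from the lower side. A miRNA precursor folds into a hairpin with 2 arms. The mature guide of miR166 comes from the 3p arm, and the strand opposite it, on the 5p arm, is usually degraded.

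The sequences that the results turn on are given here, 5′ to 3′, with the seed (bases 2 to 8) in capitals. Names follow the table, in which L and R give the bases added to or taken from the left and right end of the entry of another plant. The first is the most abundant 3p sequence, called the main sequence below, and the next is the most abundant 5p sequence. The following 6 are the other members with at least 10 reads over the 4 libraries. The last 2 are the sequence named in the degradome table and the sequence that carried the only miR165 name.
bdi-miR166a-3p: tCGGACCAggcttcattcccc
bdi-miR166e-5p: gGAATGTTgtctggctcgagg
ptc-miR166p_L+2R-2: tCTCGGACcaggctccattcc
mes-miR166i_L+3R-2: tCTTTGGAccaggcttcattcc
ppt-miR166j_L+1R-1: cTCCGGACcaggcttcattcc
mtr-miR166a_L+3R-2: gATTCGGAccaggcttcattcc
ptc-miR166a_L+5R-2: aTCTCTCGgaccaggcttcattcc
aly-miR166a-3p_L+4R-2: aTTCTCGGaccaggcttcattcc
ppt-miR166m_R-3: tCGGACCAggcatcattc
ath-miR165a_L-1_1ss16TC: cGGACCAGgcttcacccccc

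The main 3p and 5p sequences shared a listed precursor of 151 nt, printed here with both arms in capitals to show how they face each other. The first name listed for it was bdi-MIR166e, of the grass *Brachypodium distachyon*, and it is not a sequence read from *S. miltiorrhiza*.
precursor of both arms: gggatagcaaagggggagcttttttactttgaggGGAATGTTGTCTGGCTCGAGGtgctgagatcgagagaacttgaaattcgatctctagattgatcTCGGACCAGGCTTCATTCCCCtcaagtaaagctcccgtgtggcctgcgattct
The 5p sequence lies at positions 35 to 55 and the 3p sequence at positions 99 to 119, with 43 nt between them. In the fold deposited with it, which had a free energy of -72.1 kcal/mol, 15 bases of 1 arm paired with the other, and each arm ran 2 nt past its partner at its 3′ end. Plant Dicer enzymes are known to leave overhangs of this kind. None of the 156 entries was placed on an expressed sequence tag (EST) of *S. miltiorrhiza* (0 entries), and 10 of the 29 sequences stood whole in a precursor listed beside them.

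The main sequence made up most of the miRNA reads in every tissue and was highest in flower. The table held 494824 miRNA reads for flower, 238148 for leaf, 380306 for stem and 499434 for root. The main sequence had 448913 of these in flower, against 189423 in leaf, 301237 in stem and 362860 in root, which was 90.7%, 79.5%, 79.2% and 72.7% of all reads in the table. It was the most abundant of the 241 sequences in each library. In flower it had 19.6 times the reads of the next sequence, ath-miR159a_R-1, and in leaf, stem and root 5.27, 6.24 and 4.75 times. Within the family it held 99.9% of the reads in flower, leaf and stem and 99.8% in root.

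After the authors' normalization, which multiplies the reads of a library by 1 factor, the main sequence had a normalized count of 632467 in flower, against 360210 in leaf, 215295 in stem and 198594 in root. Flower was 3.18 times root, with a 95% interval of 3.17 to 3.2 from an exact binomial calculation. Leaf was 1.81 times root (1.80 to 1.82), and stem was 1.08 times root (1.08 to 1.09). These intervals are narrow because the counts are large, and they hold no spread between plants or libraries.

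**Figure D1:**
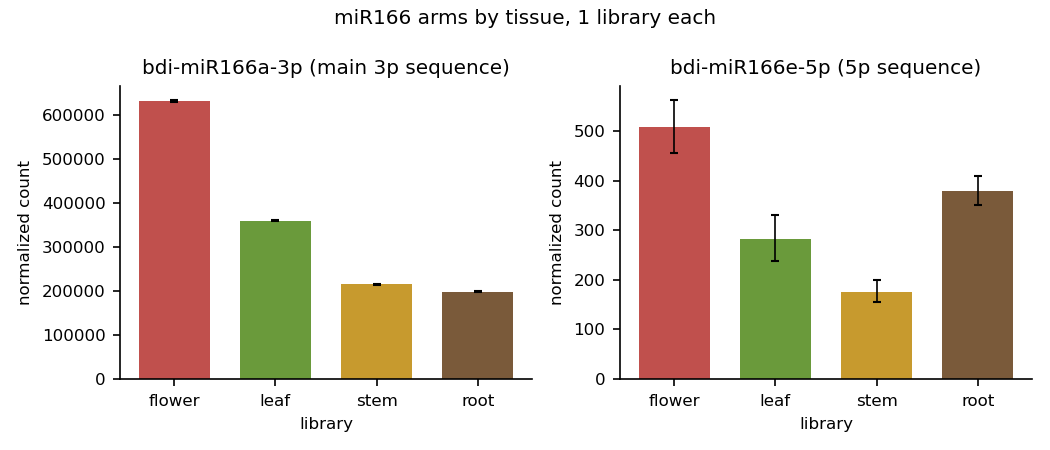
Normalized count (y axis, linear, from 0) of the main 3p sequence at left and the 5p sequence at right in flower, leaf, stem and root (x axis), 1 library each, with bars for the count and whiskers for its exact Poisson 95% interval. The 3p sequence was at 632467 in flower and 198594 in root, and the 5p sequence was highest in flower, at 507, with 379 in root and 176 in stem.

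The level of the main sequence was also set against other measures of depth. Flower was highest under all 5 scalings tried. Per 1000000 clean reads of the library, the main sequence had 110355 reads in flower, against 35217 in leaf, 45739 in stem and 40958 in root, and leaf was then the lowest. Set against the reads of all other families, it had 9.88 reads per other read in flower, against 3.90 in leaf, 3.82 in stem and 2.67 in root. The flower to root ratio ran from 1.25, as a share of the table, to 3.70, per read that was not miR166. These last measures rest on the same reads, since the main sequence was nearly the whole family, and they gave the same order of libraries. They are therefore not separate checks of each other. Leaf and stem changed order. Leaf was 1.67 times stem by the authors' factors and 0.770 times stem per 1000000 clean reads.

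**Figure D2:**
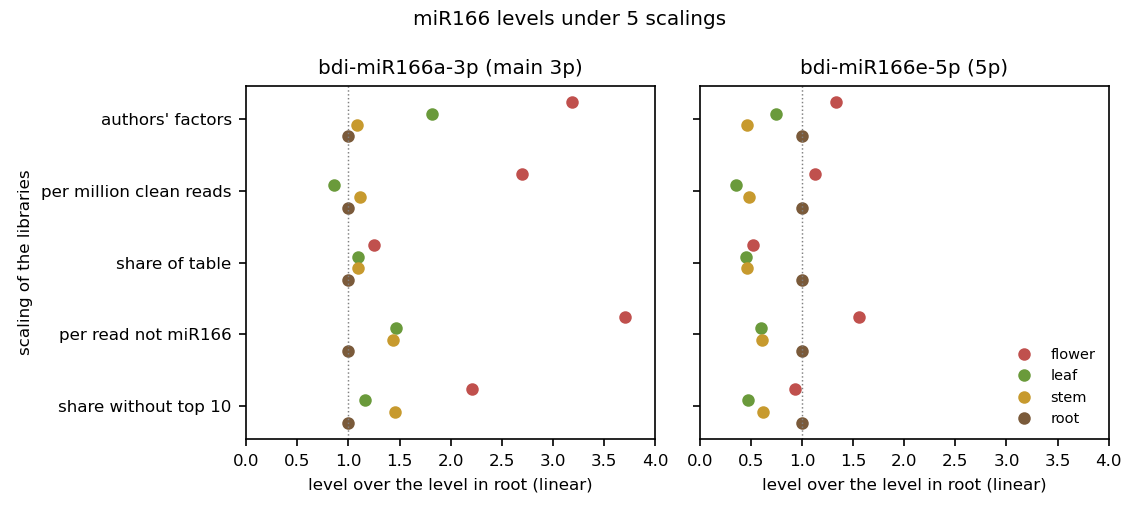
Level of the main 3p sequence (left) and the 5p sequence (right) divided by its level in root (x axis, linear, dotted line at 1), under 5 ways of scaling the libraries (y axis), with 1 point per library. Flower lay to the right of root in all 5 cases for the 3p sequence, at 1.25 to 3.70, but to the left of root in 2 of 5 cases for the 5p sequence, at 0.524 and 0.927, and the interval of 0.927 includes 1.

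The strand opposite the guide did not follow it in root. The 5p sequence had 693 reads in root, against 360 in flower, 148 in leaf and 246 in stem. Per 100000 reads of the main sequence in the same library, a ratio in which scaling cancels, it had 191 in root (177 to 206), against 80.2 in flower (72.1 to 88.9), 78.1 in leaf (66.1 to 91.8) and 81.7 in stem (71.8 to 92.5). Root therefore stood apart from the other 3 libraries, which overlapped in their intervals.

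Root was 2.38 times flower (95% interval 2.09 to 2.71), with an exact two-sided binomial p of 4.82e-43 and 1.45e-42 after Benjamini-Hochberg adjustment over these 3 tests. Root was 2.44 times leaf (2.04 to 2.94, adjusted exact p of 6.67e-27) and 2.34 times stem (2.02 to 2.72, adjusted exact p of 1.86e-33). Against the other 3 together the ratio was 2.38 (2.14 to 2.64). Flower was 1.03 times leaf (0.845 to 1.25) and 0.982 times stem (0.833 to 1.16), and both intervals include 1. The p-values treat reads as independent molecules, which PCR without molecular identifiers does not ensure. By the authors' factors alone the 5p sequence was highest in flower, at a normalized count of 507, against 281 in leaf, 176 in stem and 379 in root. Its order between flower and root depended on the scaling, with flower at 1.34 times root by the factors and at 0.524 times root as a share of the table (0.460 to 0.596).

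Counts on both arms were also available for 8 other families with at least 10 reads on the rarer arm. The rarer arm was highest in root, relative to the other arm, in 2 of these 8. They were miR319, with 15.2 rarer-arm reads over the 4 libraries, and miR390, with 13. Both counts are small beside the 1452 reads on the 5p arm of miR166. For miR156, miR164, miR167 and miR168 the rarer arm was highest in stem, and for miR172 and miR396 in leaf. The rarer arm is the one with fewer reads over the 4 libraries. For miR172 it had 121739 reads per 100000 of the other arm in leaf, 97868.5 in stem, 95000 in root and 10030 in flower. It was thus the more abundant arm in leaf, unlike the 5p arm of miR166. The ratio of the highest to the lowest library was 2.46 for miR166. It was larger for miR396 (3.28), miR164 (3.32), miR172 (12.1) and miR167 (15.4, from 17.3 rarer-arm reads). For miR156 (1.70) and miR168 (1.54) it was smaller. The rarer arms of miR319 and miR390 had 0 reads in leaf, so they gave no ratio.

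The family held 22 further 3p sequences with 247 reads in all and 5 further 5p sequences with 4.88 reads. Values below 1 arise because the authors divided a read over the entries it matched. The table header describes the reads of an entry as those of the isoforms at that end of the precursor, so the reads of a sequence may include near isoforms.

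Most of these rare 3p sequences, as listed, started upstream of the main one. No listed 3p sequence differed from the main one at its 3′ end alone, so reads of such forms may stand in the main entry. The starts and ends below therefore describe the listed sequences, not the full range of isoforms. Of the 22, 16 carried 1 to 5 bases before its first base, with 236 of the 247 reads, 5 began at the same base and 1 began 1 base later. Among the 16, 11 also ended 2 bases before the main sequence, with 212 reads, and the other 5 had the same end, with 23.3 reads. A shifted start moves the seed. The seed CGGACCA of the main sequence was shared by 2 other members, each with 1 read, and the 29 sequences carried 19 different seeds. The 5p seed GAATGTT was shared by 4 sequences. The added bases were those of the printed precursor in 2 of the 16 sequences, ptc-miR166p_L+2R-2 and aqc-miR166c_L+2R+1_1ss21CT, which held 72.5 reads. That precursor is only 1 of those listed. Of the 16, 6 with 113 reads stood whole in a precursor listed beside them, and 10 with 123 reads did not.

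**Figure D3:**
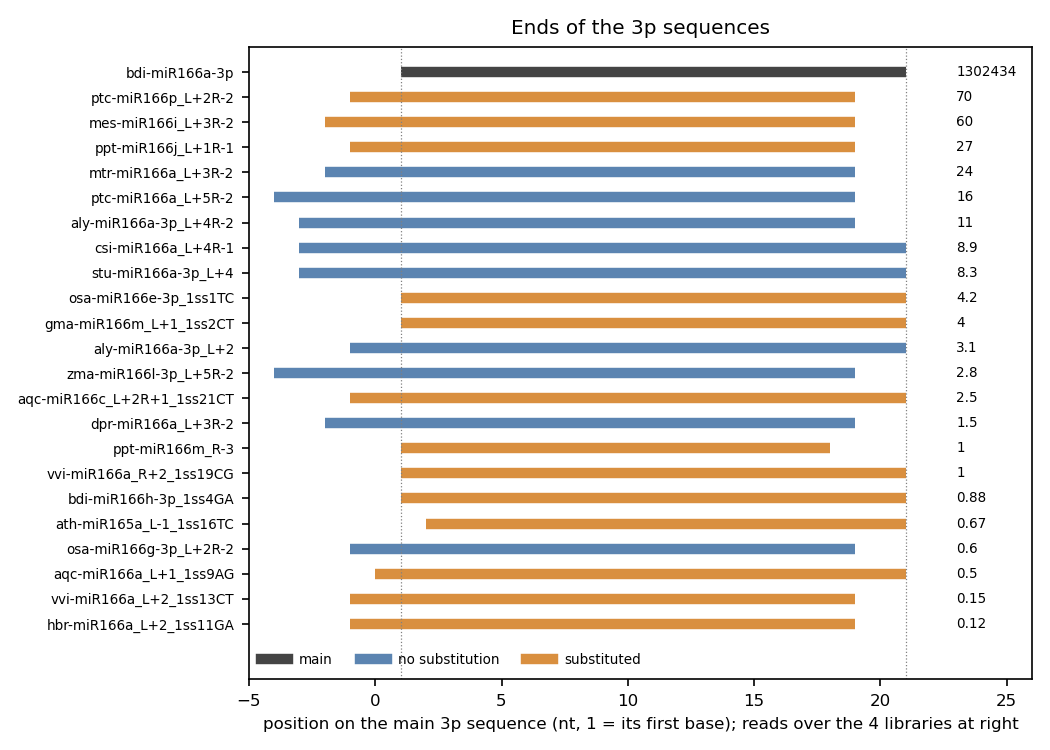
Extent of the 23 sequences of the 3p arm along the main sequence (x axis, nt, 1 at its first base), 1 line per sequence (y axis), sorted by reads over the 4 libraries, which are printed at right. Lines are dark grey for the main sequence, blue for sequences with no substitution and orange for those with 1 or more, and 16 lines begin left of position 1.

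Substitutions are counted on the main sequence of the same arm, from 1 at its 5′ end, with its base first. ptc-miR166p_L+2R-2 had T13C, mes-miR166i_L+3R-2 had C2T and ppt-miR166j_L+1R-1 had T1C, while the remaining 3 with at least 10 reads had no substitution. Over all members, 17 sequences with 176 reads had at least 1 substitution. The sequence that carried the miR165 name had T16C and T17C, began 1 base late, and had 0.667 reads over its 4 entries, all in flower. The miR165 name held 0.333 of these reads, and the rest stood under 2 miR166 names.

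Reads were rounded to whole numbers for the tests, and the 24 members that kept at least 1 read in a library were tested. They were the 20 with at least 1 read in all and 4 with under 1 read. Over the libraries, 7 of the 24 were called, at a Benjamini-Hochberg adjusted p under 0.01 over the 226 sequences tested, by Pearson's chi-squared test or the exact multinomial test against the authors' depths. Of all sequences tested, 35.4% were called. Among members with at least 10 reads, 7 of 8 were called, beside 76.8% of all such sequences. That minimum applies to the sum over the 4 libraries. Flower held 19.2 of the 27.2 reads of ppt-miR166j_L+1R-1, 16.1 of the 23.6 of mtr-miR166a_L+3R-2 and 8 of the 16 of ptc-miR166a_L+5R-2. The minimum therefore in part selects such members for being high in flower. By the authors' factors 7 of the 24 members were called and highest in flower, beside 15.5% of the sequences tested, which was 35 of the 80 sequences called. By the same factors the main sequence was lowest in root and the 5p sequence was lowest in stem. The other called members were also lowest in root, but on only 0 to 15.02 reads there. The share over all sequences was not computed, so this is not read as a trait of the family. Per 1000000 clean reads the main sequence and the 5p sequence were both lowest in leaf. The other 17 members tested were not called, with a lowest adjusted p of 0.157, and 5 members rounded to 0 in every library and were not tested.

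The scaling drops out when each member is set against the main sequence of its own library. By that measure 3 of 23 members were called, beside 33.8% of all sequences tested, and all 3 were among the 7 with at least 10 reads, beside 77.7% of such sequences. One was the 5p sequence, described above. The others were ptc-miR166p_L+2R-2 and ppt-miR166j_L+1R-1, both highest in flower.

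The most abundant of the shifted sequences, ptc-miR166p_L+2R-2, had 47.7 reads in flower, against 6.33 in leaf, 15 in stem and 1 in root. Per 100000 main reads that was 10.6 in flower (7.82 to 14.1), 3.34 in leaf (1.27 to 7.14), 4.98 in stem (2.79 to 8.21) and 0.276 in root (0.00698 to 1.54). Flower was 3.38 times leaf (1.44 to 9.65), 2.15 times stem (1.18 to 4.13) and 38.8 times root (6.64 to 1564), and the test over the 4 libraries gave an adjusted p of 1.33e-08. The ratio to root rests on the 1 read there.

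Also highest in flower and lowest in root was ppt-miR166j_L+1R-1, with 19.2 reads in flower, against 4.84 in leaf, 2.17 in stem and 1 in root. Relative to the main sequence, flower was 6.37 times stem (1.54 to 56.4) and 15.4 times root (2.44 to 638), while against leaf the ratio of 1.60 (0.579 to 5.49) included 1. Its adjusted p was 4.65e-04.

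Another 4 sequences had at least 10 reads and were not called relative to the main sequence. mes-miR166i_L+3R-2 had 25.5 reads in flower, against 7.5 in leaf, 11.5 in stem and 15.02 in root, with intervals per 100000 main reads that overlapped in all 4 libraries and an adjusted p of 0.737. For mtr-miR166a_L+3R-2 there were 16.1 reads in flower, against 2.91 in leaf, 2.66 in stem and 1.87 in root, with an adjusted p of 0.0283. ptc-miR166a_L+5R-2 had 8 reads in flower, against 2 in leaf, 6 in stem and 0 in root, where a count of 0 allows up to 0.827 reads per 100000 main reads by the limit of 3 reads, or 1.02 by the two-sided exact Poisson interval, and its adjusted p was 0.0550. The last, aly-miR166a-3p_L+4R-2, had 1.33 reads in flower, against 1 in leaf, 4.25 in stem and 4.17 in root. It was the only one of the 8 that was not called by the authors' factors either.

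**Figure D4:**
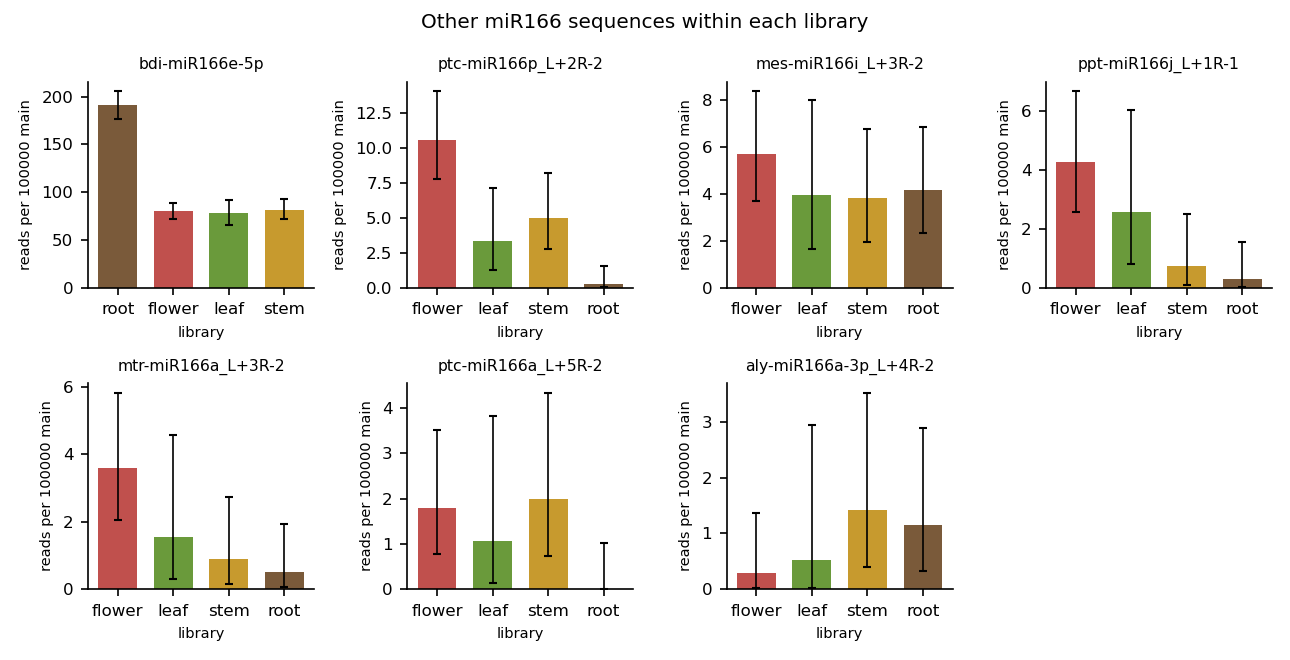
Reads per 100000 reads of the main sequence in the same library (y axis, linear, from 0) for the 7 other members with at least 10 reads, by library (x axis), with exact Poisson 95% intervals as whiskers. Root is at 191 for bdi-miR166e-5p, against 78.1 to 81.7 in the other libraries, and flower is at 10.6 for ptc-miR166p_L+2R-2, against 0.276 in root.

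Taken by their ends, the 11 sequences with an early start and an end 2 bases short had 26.5 reads per 100000 main reads in flower (21.9 to 31.7), 13.3 in leaf (8.66 to 19.7), 14.9 in stem (10.8 to 19.9) and 6.43 in root (4.09 to 9.62). The interval of flower lay above those of the other 3 libraries, and that of root lay below that of stem but overlapped that of leaf. The 5 substituted sequences among the 11 had 20.6 in flower (16.6 to 25.2), against 9.96 in leaf (5.98 to 15.6), 9.52 in stem (6.36 to 13.7) and 4.69 in root (2.73 to 7.51), and of their 92.4 flower reads 47.7 were ptc-miR166p_L+2R-2. The 6 with no substitution had 5.89 in flower (3.86 to 8.6), against 3.39 in leaf (1.29 to 7.19), 5.33 in stem (3.05 to 8.65) and 1.74 in root (0.658 to 3.71), and flower overlapped leaf and stem. The 5 with an early start and the same end as the main sequence had 1.61 in flower (0.658 to 3.28), 1.38 in leaf (0.241 to 4.31), 1.44 in stem (0.422 to 3.57) and 2.52 in root (1.16 to 4.75), and all 4 intervals overlapped. These groups were formed after the values were seen and were not tested.

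The rest of the members were rare. There were 12 sequences with 1 to under 10 reads, 40.8 reads in all, and 9 with under 1 read, 4.30 reads in all. Reads were found in all 4 libraries for 11 of the 29 sequences and in a single library for 10, of which 5 were in flower, against 2 in leaf, 0 in stem and 3 in root. These 10 had 6.54 reads together, so their absence from the other libraries was not distinguishable from counting error at this depth. The share of single-library sequences over the whole table was not computed, so these counts are not read as a trait of miR166. The lengths ran from 18 to 25 nt, and 12 sequences had 21 nt.

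Among the 36 sequences of other families with at least 100 reads, the pattern most like that of the main sequence was that of rco-miR156f. miR156 acts on SPL transcription factors, which time the change from juvenile to adult growth. Likeness was the largest difference, over the 4 libraries, between centred log2 normalized counts with 0.5 added, so a smaller value is closer. It was 0.31 for rco-miR156f, whose normalized counts were 440 in flower, against 234 in leaf, 189 in stem and 125 in root. It was 0.59 for aly-miR159a-3p_R+2, 0.71 for tcc-miR530b_R+1, 0.76 for gma-miR6300_R+5 and 0.86 for lus-miR156a. The median over the 36 was 1.39. With 4 libraries this is a description of levels only.

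The same leaf and meristem programmes involve other conserved miRNAs, and 8 such families were set beside miR166. Of the 8, 7 were called over the libraries, against 50% of the 70 families tested and 91.9% of the 37 with at least 10 reads, as all 8 had. By the authors' factors 4 of the 8 were highest in root, against 10 of the 37. Their median ratio of the highest to the lowest library was 16.3, against 4.11 over the 37 families with at least 10 reads and 3.18 for miR166.

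miR390, which triggers the trans-acting siRNAs against auxin response factors of the lower leaf side, was highest in flower like miR166. Its normalized count was 556 in flower, against 27.3 in leaf, 48.0 in stem and 19.4 in root, and flower was 28.6 times root. miR164, which acts on NAC genes of organ boundaries, was highest in root, with 1363 in flower, against 185 in leaf, 139 in stem and 5457 in root. miR171, which acts on GRAS genes of the shoot meristem, had 237 in flower, against 25.4 in leaf, 15.1 in stem and 1833 in root, and its ratio of root to stem was 121. These 3 families kept their highest library under all 5 scalings.

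miR319, which acts on TCP genes of leaf growth, was also highest in root under all 5, at 2992, against 1101 in flower, 143 in leaf and 1907 in stem. miR167, which acts on auxin response factors, was highest in leaf under all 5, at 3360, against 1642 in flower, 286 in stem and 529 in root. The highest library of miR160, miR394 and miR396 moved with the scaling. By the authors' factors, miR394, which acts on an F-box gene of the shoot meristem, had 213 in flower, against 78.0 in leaf, 78.6 in stem and 183 in root. miR396, which acts on growth-regulating factors, had 2413 in flower, against 4653 in leaf, 4356 in stem and 2401 in root. miR160, which acts on auxin response factors, had 61.5 reads over the 4 libraries, and it was the 1 family of the 8 not called, with an adjusted p of 0.284. As a share of the table it was called, with an adjusted p of 3.49e-04, and over the other 3 scalings this ran from 0.0161 to 0.289.

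**Figure D5:**
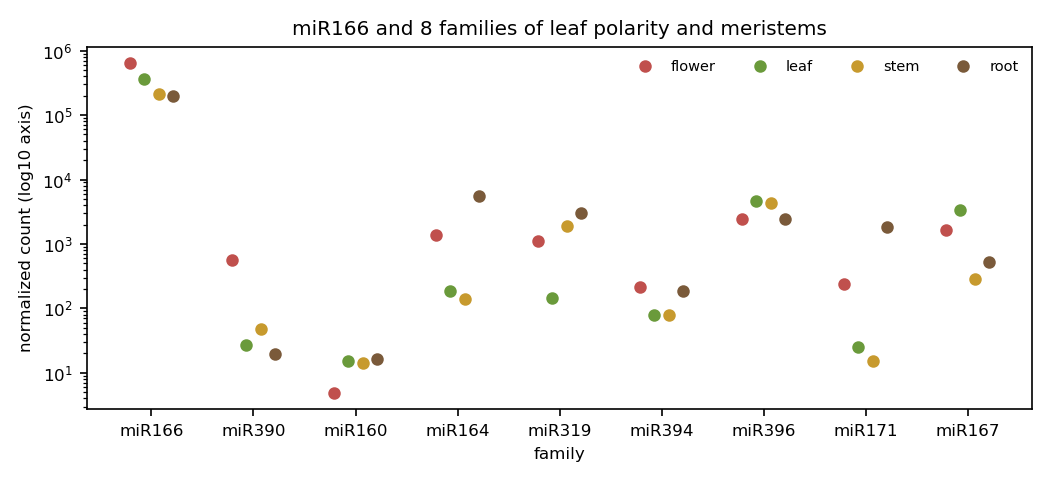
Normalized count (y axis, log10 axis) of miR166 and of 8 families of leaf polarity and meristems (x axis), with 1 point per library. miR166 lay between 198994 and 633163, above every point of the other families, and miR164 and miR171 had their highest point in root, at 5457 and 1833.

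The degradome table listed 82 pairs of a miRNA and a transcript with a cleaved end at a site assigned by the authors' program. Of these, 6, or 7.32%, were assigned to miR166. All 6 were for ppt-miR166m_R-3, an 18 nt sequence with T12A that had 1 read, in flower. For the main sequence, with 1302434 reads over the 4 libraries, 0 pairs were listed. None of the 6 transcripts was annotated by the study as an HD-ZIP III factor. Whether any HD-ZIP III transcript was among the sequences searched could not be checked here. The 0 pairs therefore do not show that such transcripts were left uncleaved.

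The 2 pairs with the most reads were on EST CV164383, annotated as large subunit ribosomal protein L9e, and on EST CV167555, annotated as an aquaporin of the tonoplast (TIP), a water channel of the vacuole. The cleaved end lay at position 294 of CV164383, within an alignment at 285 to 303, with 7 reads. It lay at position 432 of CV167555, within 424 to 441, with 6 reads, or 1.83 after division over the transcripts they matched. Both were of category 2 of the program CleaveLand, in which the end stands above the median of the transcript but is not its highest, and both had a program p-value of 0.999.

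The other 4 pairs were on ESTs annotated as S-adenosylmethionine synthetase, the enzyme that makes the methyl donor of the cell. Each had 1 read, of category 4, which holds sites with a single read, with 0.143 reads after division, since the same read matched 7 transcripts. Their program p-value was 0.931. Counted from the 3′ end of the aligned range, their cleaved end lay at base 9, in ranges of 17 nt for the 18 nt miRNA. It lay at base 10 in 2 of the 6 miR166 pairs, against at least 61 of the 76 pairs of other miRNAs. All 6 miR166 pairs had an alignment score of 4, a penalty that 54 of the 82 pairs had. In the other families the lowest p-value was 0.0700, so 0 of 82 pairs were under 0.05. For miR166 the pairs numbered 2 with at least 5 reads, against 37 of the 76 pairs of other miRNAs, and 0 with at least 10 reads, against 27 of 76.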

How the data were processed

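Small RNA of 4 tissues, 1 library each, and 1 degradome of their mixture were analysed. Per the methods and labels, the authors trimmed and filtered reads of 18 to 25 nt with ACGT101-miR 4.2 and aligned them to miRBase precursors. The authors' deposited reads are estimated counts, divided over entries. The deposited normalized count is a signal, reads times 1 factor per library. The authors' degradome table, made with CleaveLand 3.0 and ACGT301-DGE 1.0, gives each site's raw read count, the same divided over transcripts as a signal, the score of the alignment, a category and a program p-value. Not analysed here were 6 emptied lines of the miRNA table.

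Totals per distinct sequence were made with Python 3.11.15 and pandas 2.3.3, and rounded for tests. Libraries were compared by Pearson's chi-squared (3 degrees of freedom), or by an exact multinomial test for expected counts under 5, at depths given by the inverse factors (scipy 1.17.1, checked on simulated data). Benjamini-Hochberg adjustment covered all sequences tested, and the threshold was 0.01. Intervals are exact Poisson or conditional binomial at 95%. The floor for a count of 0 was 3 reads. Sequences named were the most abundant on each arm, those with at least 10 reads, the degradome name, the 5 most alike in pattern and 8 listed families. The sequence with the miR165 name and aqc-miR166c_L+2R+1_1ss21CT were named after their values were seen. Clean read totals for 1 scaling came from the study. Alternatives changed the scaling, adjustment, threshold, read minimum, unit, test and membership. Members and lists were chosen with earlier results of these data known, including the study's supplementary tables.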

Additional observations from a re-analysis of the deposited data

How the results depend on the processing

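Of 31 recalculated values for the 6 comparisons, 22 stayed on their side of the threshold, or within 1.5 times for a count, and 9 moved. No ratio among them changed direction. Of the 9, 4 are ratios that left the counting interval of the main value, while 5 are counts. The flower to root ratio of the main sequence, 3.18 by the authors' factors, was 2.69 per 1000000 clean reads, 1.25 as a share of the table, 3.70 per read not miR166 and 2.21 as a share without the 10 most abundant sequences. The flower to root ratio of the 5p sequence, 1.34 by the factors, was 0.524 as a share of the table (0.460 to 0.596) and 0.927 without the 10 most abundant (0.814 to 1.05, which includes 1). Per 1000000 clean reads it was 1.13 (0.993 to 1.29), also including 1. The cause was not tested. As a share of the table, 5 members in place of 7 were called, and mes-miR166i_L+3R-2 and ptc-miR166a_L+5R-2 lost their calls, with adjusted p-values of 0.392 and 0.0280 (over the other scalings they ran from 8.71e-08 to 0.00321 and from 8.25e-05 to 0.00123). The other alternatives left 7 called. Among the 8 listed families, 8 in place of 7 were called as a share of the table. At a threshold of 0.05, 5 members in place of 3 were called relative to the main sequence. The root ratio of the 5p sequence was 2.38 from the first table entries and 2.39 from all sequences of each arm. Of the 6 degradome pairs, 2 remained with categories 0 to 2, 2 with at least 5 raw reads, 2 with at least 1 divided read and 0 with a program p-value under 0.05. No paired analysis was possible because each tissue had 1 library. Depth limits all members but the main sequence and the 5p sequence, since the next had 70 reads in all.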
